A study of Homo sapiens with 6 samples.

Results

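The collagen genes were taken as every gene of the deposited expression table whose symbol reads COL, a number, A and a number, which gave 44 of the 20030 genes listed. They were divided into 11 fibrillar collagen genes, 6 basement membrane collagen genes (COL4A1 to COL4A6) and 27 other collagen genes. The question was how the mRNA of these genes differed between 786-O cells with YB1 knockdown and control cells. 786-O is an established human line from a clear cell renal cell carcinoma that lacks functional VHL. The shYB1 group carried a lentiviral short hairpin RNA (shRNA) against YB1, the protein encoded by YBX1. The vector group carried the same kind of lentivirus with a nonsense shRNA. Both groups were stable lines made by puromycin selection, at passages 16 to 18. Each had 3 libraries made from total RNA, and the study describes mRNA sequencing. The design note of the series mentions more than 1 shRNA, but all knockdown libraries bear a single shYB1 label, so it is not known here which hairpin each carried. The labels do not say whether replicates came from separate cultures, so p-values measure only the spread between these samples.

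Collagens are secreted proteins whose chains wind around each other into a helix, and each collagen type is built from its own set of chains, each with its own gene. Fibrillar collagens form the cable-like fibres of connective tissue, collagen IV forms the sheet-like network of basement membranes, and the remaining types decorate fibrils, form beaded filaments, anchor epithelia or span the plasma membrane. Chains are hydroxylated and folded in the endoplasmic reticulum, exported, trimmed outside the cell and crosslinked, and are later cleaved by metalloproteinases. In the kidney, collagen IV is the main collagen of tubular and glomerular basement membranes. YB1 binds DNA and RNA and was named for the Y-box, a promoter element whose core reads CCAAT on either strand.

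The sequences just before the start sites are shown for the collagen genes with the clearest differences and for the COL4A1 and COL4A2 pair, which share a start region. COL4A1 and COL4A2 are transcribed away from each other on chromosome 13, with 126 bases between their RefSeq start sites (GRCh38, chr13:110307158-110307283). This interval is printed on the strand of COL4A2, with its only Y-box core in capitals.
COL4A1-COL4A2: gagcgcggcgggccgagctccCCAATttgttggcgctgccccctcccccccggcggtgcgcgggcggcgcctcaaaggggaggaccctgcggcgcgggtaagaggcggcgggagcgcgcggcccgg
The core lies 26 bases from the start of COL4A1 and 105 bases from the start of COL4A2, so both genes have it. The other COL4 pairs are also arranged head to head, with 418 bases between the starts of COL4A4 and COL4A3 and 379 bases between the nearest starts of COL4A6 and COL4A5. The next 5 sequences are the 250 bases before the start site of COL6A2 (chr21:46097862-46098111, plus strand), COL6A3 (chr2:237414165-237414414, minus), COL7A1 (chr3:48595330-48595579, minus), COL9A2 (chr1:40317287-40317536, minus) and COL27A1 (chr9:114155287-114155536, plus). Each is written in the direction of its gene, and capitals mark GC boxes (GGGCGG or CCGCCC), which the factor SP1 is known to bind.
COL6A2: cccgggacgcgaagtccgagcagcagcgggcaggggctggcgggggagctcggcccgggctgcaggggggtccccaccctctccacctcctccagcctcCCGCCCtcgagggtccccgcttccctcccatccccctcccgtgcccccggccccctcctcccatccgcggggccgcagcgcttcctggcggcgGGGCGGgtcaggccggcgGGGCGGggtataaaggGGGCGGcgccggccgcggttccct
COL6A3: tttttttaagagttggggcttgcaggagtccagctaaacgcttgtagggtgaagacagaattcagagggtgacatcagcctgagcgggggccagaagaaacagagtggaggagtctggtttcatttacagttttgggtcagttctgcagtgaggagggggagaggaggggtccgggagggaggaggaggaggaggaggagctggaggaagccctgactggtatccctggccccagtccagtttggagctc
COL7A1: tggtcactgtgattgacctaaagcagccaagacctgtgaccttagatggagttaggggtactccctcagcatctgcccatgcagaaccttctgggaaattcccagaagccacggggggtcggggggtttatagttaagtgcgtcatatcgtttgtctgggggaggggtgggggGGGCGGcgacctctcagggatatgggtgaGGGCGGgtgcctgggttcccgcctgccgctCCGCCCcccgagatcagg
COL9A2: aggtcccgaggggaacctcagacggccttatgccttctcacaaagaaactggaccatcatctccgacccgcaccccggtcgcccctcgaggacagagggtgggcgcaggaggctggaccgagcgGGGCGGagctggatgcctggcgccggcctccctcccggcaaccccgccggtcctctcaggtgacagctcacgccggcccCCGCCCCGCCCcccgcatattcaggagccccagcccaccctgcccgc
COL27A1: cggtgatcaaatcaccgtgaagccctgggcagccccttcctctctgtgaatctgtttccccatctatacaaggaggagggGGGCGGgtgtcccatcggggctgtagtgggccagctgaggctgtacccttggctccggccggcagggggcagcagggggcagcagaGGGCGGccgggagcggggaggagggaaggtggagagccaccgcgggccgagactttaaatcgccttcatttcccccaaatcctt
None of these 5 windows held a Y-box core (CCAAT or ATTGG). COL6A2 held 4 GC boxes in a window of 79.6% GC, COL7A1 and COL9A2 held 3 each, of which 2 overlap in COL9A2, COL27A1 held 2, and COL6A3 held 0 in a window of 56.0% GC. Over the 35116 windows of this length in the RefSeq table, 32.0% held a Y-box core and 42.6% a GC box. Among the 44 windows of the 32 collagen genes in that table, the shares were 27.3% for the Y-box core and 54.5% for the GC box. Of the collagen genes measured above the expression limit, 10 were in the table and 3 of these had a Y-box core, namely COL4A1, COL4A2 and COL4A5. COL6A1, COL8A1 and COL14A1 were among those not matched. A match describes the letters only, and the GC box was chosen after the expression values were known.

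Expression was given in FPKM, a fragment count scaled by transcript length and by the mapped total of its library, so levels can be compared between genes per length. The table holds no counts and the depth of the libraries is unknown, but the spacing of the lowest values put their relative depth between 0.980 and 1.10 times that of shYB1 replicate 1. No library stood apart, with correlations of 0.995 to 0.996 between libraries of the same group. The targeted gene YBX1 was at 367, 373 and 378 FPKM in vector and at 167, 166 and 173 FPKM in shYB1 libraries. Its log2 fold change was -1.14 (SE 0.0312, limma adjusted p = 1.53e-08), so the libraries match their labels. The renal line markers were high, with PAX8 at 75.6 to 78.7 FPKM, and 7 of 7 passed the expression limit. Their summed level was 1851 to 1943 FPKM in vector and 1919 to 1953 FPKM in shYB1 libraries. Most of it was VIM, at 1366 to 1450 FPKM, which the study counts as a mesenchymal marker. Markers of the cells that make much collagen in tissue were low. The 5 fibroblast and pericyte genes summed to 4.20 to 4.50 FPKM in vector and 4.21 to 5.01 FPKM in shYB1 libraries. Nearly all of this was LUM and ACTA2, with means of 2.18 and 2.03 FPKM. These were the 2 tested, and 0 of them were called. The endothelial gene CDH5 and the T cell gene CD3E were listed at 0 in all 6 libraries. The summed level of 3 endothelial genes was 0.365 to 0.406 FPKM in vector and 0.240 to 0.326 FPKM in shYB1 libraries. The leukocyte list summed to 24.7 to 25.4 FPKM in vector and 22.1 to 22.6 FPKM in shYB1 libraries, nearly all of it CD68, a lysosomal protein, which was lower in shYB1 cells (log2 fold change -0.16, limma adjusted p = 0.00969). In cultured cells measured in bulk, fewer cells of a kind and less RNA per cell cannot be told apart.

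786-O cells expressed a small set of collagens, dominated by collagen VI. Of the 44 genes, 13 averaged 1 FPKM or more across the 6 libraries and were tested together with all 10439 genes above that limit. After YB1 knockdown, 6 of the 13 rose, 3 fell and 4 did not pass the test (limma, Benjamini-Hochberg adjusted p under 0.05). COL4A2, COL6A1, COL6A2, COL6A3, COL7A1 and COL9A2 rose. COL8A1, COL14A1 and COL27A1 fell. COL4A1, COL4A5, COL12A1 and COL18A1 did not pass. Over all genes tested 25.7% were called, 18.7% higher and 6.93% lower. Since 73.0% of all calls were higher ones, the values were also rescaled by median-of-ratios size factors, which lowered that share to 48.8%. Calls then covered 23.4% of all genes, 11.4% higher and 12.0% lower, and 5 higher and 3 lower of the 13 collagen genes, with COL6A1 no longer called. The median log2 fold change was 0.14 over the 13 collagen genes and 0.055 over all genes tested, and 0.085 and 0.00099 after the rescaling. The values of the shYB1 libraries lay entirely above those of the vector libraries for 7 of the 13 genes and entirely below for 4, against 30.1% and 12.5% of all genes. The changes were small. None of the 13 met the limits of the study, a fold change of at least 2 with an unadjusted p under 0.05. These limits were applied here to limma p-values and to fold changes of FPKM + 0.1. Of the 10439 genes tested, 4 met them upward and 19 downward. With 3 libraries against 3, the exact permutation test of a single gene cannot give a p under 0.1, which is the value of each gene whose groups did not overlap.

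**Figure D1:**
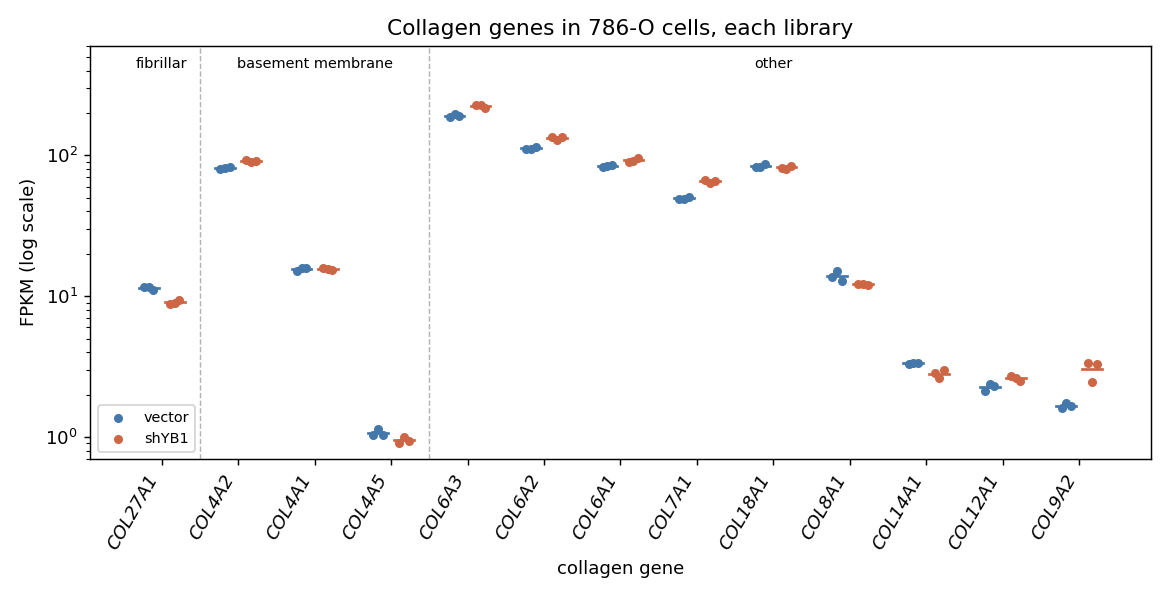
FPKM (log axis) of the 13 collagen genes that averaged 1 FPKM or more, with a point for each library and a line at the mean of the 3 libraries of a group. COL6A3 was the most abundant in both groups, and the points of the groups overlap only for COL4A1 and COL18A1.

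**Figure D2:**
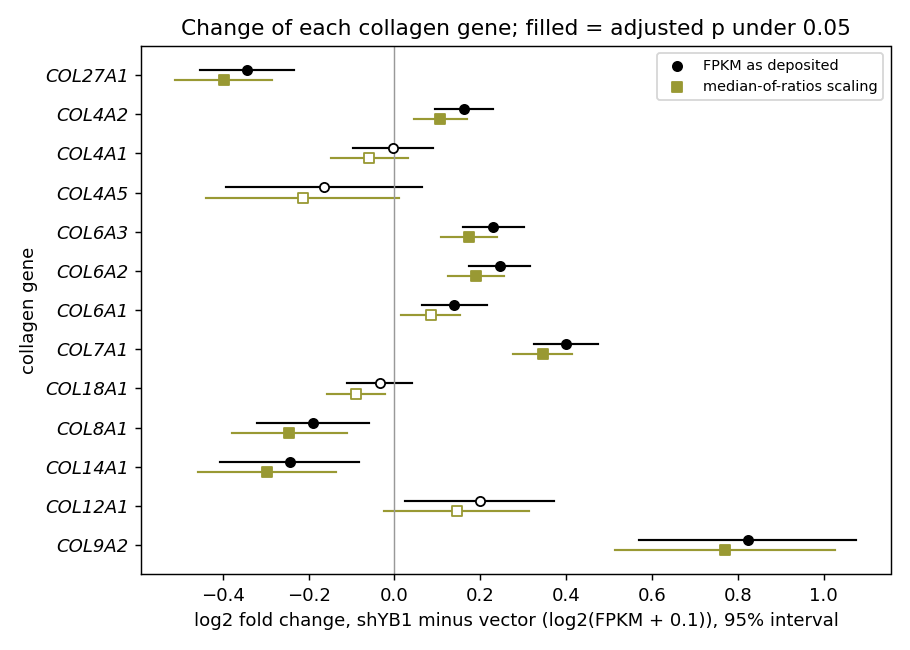
Log2 fold change (shYB1 minus vector, on the log2(FPKM + 0.1) scale) of the same 13 genes with unadjusted 95% intervals from limma, for the FPKM as deposited (circles) and after median-of-ratios scaling (squares). Filled symbols have an adjusted p under 0.05, and COL9A2 has the largest value, 0.82.

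Among the fibrillar collagens, COL27A1 was the only gene expressed above the limit, and it fell. Its chain forms thin fibrils and is known from developing cartilage. COL27A1 (chr9:114155560-114312511, plus strand) was at 11.7, 11.7 and 11.1 FPKM in vector and at 8.75, 8.95 and 9.42 FPKM in shYB1 libraries. All knockdown values lay below all control values, with means of 11.5 ± 0.307 and 9.04 ± 0.348 FPKM (SD, n = 3). This gave a log2 fold change of -0.34 (SE 0.0495, 95% interval -0.45 to -0.23, limma adjusted p = 0.000934), and -0.40 after median-of-ratios scaling (adjusted p = 0.000493). COL1A1, which encodes the main chain of collagen I, the collagen of bone and scar, was at 0.211, 0.298 and 0.393 FPKM in vector and at 0.334, 0.333 and 0.277 FPKM in shYB1 libraries. These groups overlapped (log2 fold change 0.070, SE 0.192, adjusted p = 0.858 in a limma fit without the expression limit). Its partner chain COL1A2 and the collagen V gene COL5A3 were listed at 0 in all 6 libraries. The other 7 fibrillar genes, among them COL3A1, COL5A1 and COL5A2, had means above 0 but at most 0.146 FPKM.

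Of the basement membrane collagens, COL4A2 rose while COL4A1, its neighbour and its partner chain in the same helix, showed no detectable difference. COL4A2 (chr13:110305812-110513209, plus strand) was at 80.7, 81.3 and 82.7 FPKM in vector and at 92.1, 89.7 and 92.0 FPKM in shYB1 libraries. Each knockdown library lay above each control library, with means of 81.6 ± 1.06 and 91.3 ± 1.38 FPKM (SD, n = 3). This gave a log2 fold change of 0.16 (SE 0.0305, 95% interval 0.094 to 0.23, limma adjusted p = 0.00397), and 0.11 after median-of-ratios scaling (adjusted p = 0.0205). COL4A1 (chr13:110148963-110307233, minus strand) was at 15.1, 16.0 and 15.8 FPKM in vector and at 15.9, 15.5 and 15.4 FPKM in shYB1 libraries. Here the groups overlapped, both with a mean of 15.6 FPKM, and the 95% interval of the log2 fold change ran from -0.098 to 0.091 (adjusted p = 0.964). The exon bases of COL4A2 that lie in an antisense gene of COL4A2 make up 0.420% and 0.0726% of its total for the 2 such genes annotated. COL4A5 (chrX:108439844-108697545, plus strand), whose chain belongs to the collagen IV of mature glomerular basement membranes and is mutated in Alport syndrome, was near the limit. It was at 1.04, 1.15 and 1.04 FPKM in vector and at 0.910, 0.994 and 0.941 FPKM in shYB1 libraries. All knockdown values lay below all control values, but the difference did not pass the test (log2 fold change -0.16, SE 0.103, limma adjusted p = 0.271). COL4A3, COL4A4 and COL4A6 had means above 0 but at most 0.120 FPKM.

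Since the chains of collagens IV and VI assemble in set proportions, the FPKM ratio of partner chains was computed within each library for 4 pairs, chosen after the values of the genes were known. The ratio of COL4A2 to COL4A1 was 5.33, 5.08 and 5.24 in vector and 5.78, 5.78 and 5.99 in shYB1 libraries. These groups did not overlap, and the mean ratio went from 5.22 ± 0.123 to 5.85 ± 0.116 (SD, n = 3; exact permutation p = 0.1, two-sided, 0.2 after Benjamini-Hochberg adjustment over the 4 ratios). The ratio of COL6A2 to COL6A1 was 1.34 ± 0.00870 in vector and 1.44 ± 0.0563 in shYB1 libraries (SD, n = 3; exact permutation p = 0.1, adjusted 0.2). The ratio of COL6A3 to COL6A1 overlapped between groups, at 2.28 ± 0.0503 and 2.42 ± 0.132 (SD, n = 3; exact permutation p = 0.2, adjusted 0.267). For COL6A3 to COL6A2 the ratio was 1.70 ± 0.0483 and 1.68 ± 0.0688 (SD, n = 3; exact permutation p = 0.8, adjusted 0.8). A ratio within a library does not depend on the scaling of that library, and these p-values cannot fall below 0.1.

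**Figure D3:**
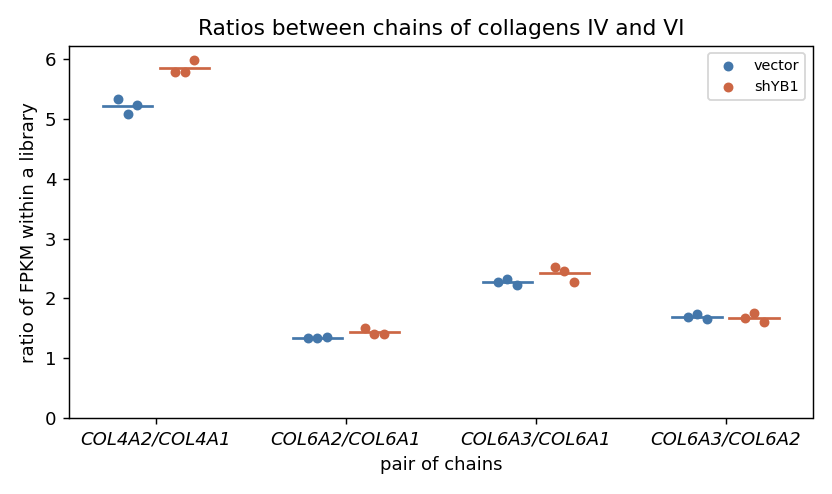
Ratio of the FPKM of partner chains of collagens IV and VI within each library, with a point for each library and a line at the mean of each group. The COL4A2/COL4A1 and COL6A2/COL6A1 ratios of the shYB1 libraries lie above those of the vector libraries, whereas the other ratios overlap.

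The 3 chains that make up the common form of collagen VI were all high and all rose. Collagen VI forms beaded filaments around cells and links them to the surrounding matrix. COL6A3 (chr2:237324003-237414375, minus strand), the longest of these chains, was at 188, 196 and 189.6 FPKM in vector and at 228, 227 and 218 FPKM in shYB1 libraries. Its mean level was higher than that of 99.1% of the genes listed. The groups were well apart, with means of 191 ± 4.04 and 224 ± 5.28 FPKM (SD, n = 3) and a log2 fold change of 0.23 (SE 0.0321, 95% interval 0.16 to 0.30, limma adjusted p = 0.000795). COL6A2 (chr21:46098097-46132849, plus strand) was at 111, 112 and 115 FPKM in vector and at 136, 129 and 135 FPKM in shYB1 libraries. Again no values overlapped, and the log2 fold change was 0.24 (SE 0.0323, 95% interval 0.17 to 0.32, limma adjusted p = 0.000560). After median-of-ratios scaling COL6A3 was at 0.17 (adjusted p = 0.00260) and COL6A2 at 0.19 (adjusted p = 0.00166). COL6A1 (chr21:45981737-46005050, plus strand) lies before COL6A2 on chromosome 21, with 93.0 kb between the end of the former and the start of the latter. It was at 83.0, 84.1 and 85.1 FPKM in vector and at 90.1, 92.0 and 95.9 FPKM in shYB1 libraries. The knockdown values were all higher, with a log2 fold change of 0.14 (SE 0.0336, 95% interval 0.065 to 0.21, limma adjusted p = 0.0130). The call of COL6A1 was lost with median-of-ratios scaling (0.085, adjusted p = 0.0729), with quantile normalization (0.088, adjusted p = 0.0611) and with a variance prior without trend (adjusted p = 0.0580). COL6A5 and COL6A6, whose chains can take the place of that of COL6A3, were listed at 0 in all 6 libraries.

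COL7A1 and COL9A2 showed the largest increases among the 13 collagen genes tested above the limit of 1 FPKM. COL7A1 (chr3:48564073-48595267, minus strand) encodes the chain of the anchoring fibrils that fasten the basement membrane of skin to the dermis. It was at 48.9, 49.3 and 50.6 FPKM in vector and at 66.8, 64.1 and 65.7 FPKM in shYB1 libraries. The lowest knockdown value stood far above the highest control value, and the mean was 32.0% higher, at 65.5 ± 1.39 against 49.6 ± 0.915 FPKM (SD, n = 3). This gave a log2 fold change of 0.40 (SE 0.0334, 95% interval 0.33 to 0.47, limma adjusted p = 3.25e-05), and 0.35 after median-of-ratios scaling (adjusted p = 5.58e-05). COL9A2 (chr1:40300487-40317813, minus strand) encodes a chain of collagen IX, which sits on the surface of cartilage fibrils. It was at 1.60, 1.74 and 1.65 FPKM in vector and at 3.38, 2.47 and 3.28 FPKM in shYB1 libraries. shYB1 replicate 2 was the lowest of the knockdown libraries but still above every control. The mean was 83.1% higher, at 3.05 ± 0.497 against 1.66 ± 0.0686 FPKM (SD, n = 3), with a log2 fold change of 0.82 (SE 0.114, 95% interval 0.57 to 1.08, limma adjusted p = 0.000771). With each library left out in turn it ranged from 0.74 to 0.96. Its partner chain COL9A1 was listed at 0 in all 6 libraries, and COL9A3 had a mean of 0.00879 FPKM.

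Of the other collagens that associate with fibrils, COL14A1 fell and COL12A1 did not pass the test. COL14A1 (chr8:120059780-120372036, plus strand) encodes a chain found on fibrils of skin and tendon. It was at 3.30, 3.36 and 3.35 FPKM in vector and at 2.83, 2.61 and 2.98 FPKM in shYB1 libraries. The knockdown values were all lower, with a log2 fold change of -0.24 (SE 0.0728, 95% interval -0.41 to -0.082, limma adjusted p = 0.0329). The call was lost without the expression limit (adjusted p = 0.0502). It was also lost when any library but shYB1 replicate 3 was left out, with adjusted p-values between 0.0687 and 0.122. Median-of-ratios scaling kept the call (log2 fold change -0.30, limma adjusted p = 0.0160). COL12A1 (chr6:75084326-75206051, minus strand), whose long chain is found in tissues under tension, was at 2.13, 2.37 and 2.28 FPKM in vector and at 2.71, 2.63 and 2.48 FPKM in shYB1 libraries. The groups did not overlap, but the difference did not pass the test (log2 fold change 0.20, SE 0.0782, limma adjusted p = 0.0871). With median-of-ratios scaling the log2 fold change of COL12A1 was 0.15 (limma adjusted p = 0.196).

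COL8A1 fell and COL18A1 showed no detectable difference. COL8A1 (chr3:99638475-99799226, plus strand) encodes a short chain that forms networks in vessel walls and the cornea. It was at 13.7, 15.1 and 12.8 FPKM in vector and at 12.2, 12.2 and 11.9 FPKM in shYB1 libraries. The knockdown values lay below the controls, which spread more widely (SD 1.13 against 0.170 FPKM, n = 3). The log2 fold change was -0.19 (SE 0.0587, 95% interval -0.32 to -0.060, limma adjusted p = 0.0372). The call was lost when any library but vector replicate 3 was left out, with adjusted p-values between 0.0770 and 0.112. It was also lost without the expression limit (adjusted p = 0.0811) and with a variance prior without trend (adjusted p = 0.0710). Median-of-ratios scaling kept the call (log2 fold change -0.24, limma adjusted p = 0.0164). The value without vector replicate 2, the highest library, was -0.13. COL18A1 (chr21:45405137-45513720, plus strand) encodes a basement membrane collagen whose end is released as endostatin. It was at 82.8, 83.0 and 86.5 FPKM in vector and at 81.8, 80.3 and 84.2 FPKM in shYB1 libraries. The groups overlapped, and the 95% interval of the log2 fold change ran from -0.11 to 0.040 (limma adjusted p = 0.490), with an adjusted p of 0.0576 after median-of-ratios scaling. Of its exon bases 16.4% lie in exons of SLC19A1 on the other strand, and reads of the 2 genes cannot be told apart there if the counting did not use strand.

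Of the 31 collagen genes under a mean of 1 FPKM, 8 were listed at 0 in all 6 libraries, 19 had means above 0 but under 0.2 FPKM, and 4 had means between 0.2 and 1 FPKM. Besides COL1A1, these 4 were COL13A1, COL16A1 and COL17A1. In all of the last 3, every shYB1 library lay above every vector library. Among all genes averaging 1 FPKM or more 30.1% were entirely higher in this way, and the share at lower levels was not computed. COL13A1 (chr10:69801867-69964275, plus strand), a transmembrane collagen of cell contacts and of the nerve-muscle junction, was at 0.538, 0.653 and 0.658 FPKM in vector and at 0.876, 0.939 and 0.862 FPKM in shYB1 libraries. It rose in the fit without the expression limit (log2 fold change 0.47, SE 0.112, limma adjusted p = 0.0334), and also after median-of-ratios scaling there (adjusted p = 0.0460). COL16A1 (chr1:31652247-31704319, minus strand), a minor fibril-associated collagen, was at 0.256, 0.337 and 0.441 FPKM in vector and at 0.525, 0.533 and 0.628 FPKM in shYB1 libraries. That difference did not pass the test (log2 fold change 0.59, SE 0.177, limma adjusted p = 0.0690). COL17A1 (chr10:104031286-104085957, minus strand), the transmembrane collagen of hemidesmosomes, was at 0.263, 0.258 and 0.351 FPKM in vector and at 0.429, 0.382 and 0.389 FPKM in shYB1 libraries, which did not pass either (log2 fold change 0.36, SE 0.145, limma adjusted p = 0.151). In that fit of 15988 genes, 13.7% of all genes were called, 9.89% higher and 3.85% lower, against 7 higher and 1 lower of 36 collagen genes. The remaining transmembrane and multiplexin genes, COL23A1, COL25A1 and COL15A1, had means of at most 0.00288 FPKM.

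The summed FPKM of the classes followed their most abundant members. The 11 fibrillar genes summed to 12.2, 12.2 and 11.8 FPKM in vector and to 9.29, 9.50 and 9.97 FPKM in shYB1 libraries, which is 20.5% lower, and nearly all of the sum was COL27A1. The 6 basement membrane genes summed to 97.0, 98.6 and 99.7 FPKM in vector and to 109, 106 and 108 FPKM in shYB1 libraries, 9.69% higher and 5.58% higher after median-of-ratios scaling. Most of this sum was COL4A2, with means of 81.6 and 91.3 FPKM. COL18A1, also a basement membrane collagen, was counted with the other genes and had means of 84.1 FPKM in vector and 82.1 FPKM in shYB1 libraries. The 27 other genes summed to 544 ± 6.96 FPKM in vector and 621 ± 5.54 FPKM in shYB1 libraries (SD, n = 3), 14.1% higher and 9.77% higher after the scaling. None of these sums overlapped between the groups on the FPKM as deposited, where 42.6% of all single genes tested did not overlap either. Collagen VI alone made up 59.3% of the collagen FPKM in vector and 61.0% in shYB1 libraries. Without it, the collagens summed to 267 ± 3.68 and 288 ± 4.88 FPKM (SD, n = 3), which is 7.87% higher. This difference was not computed after the scaling. All 44 genes together held 0.228% of the FPKM of all genes in vector and 0.256% in shYB1 libraries. No test was made of these sums.

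**Figure D4:**
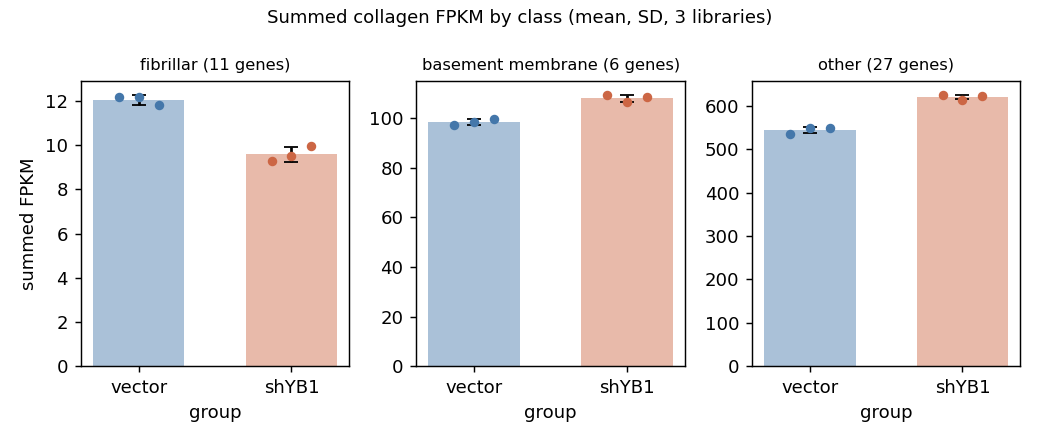
Summed FPKM of the fibrillar, basement membrane and other collagen genes, with bars for the mean, whiskers for the SD and a point for each of the 3 libraries of a group. Each panel has its own axis from 0, and the fibrillar sum is lower in the shYB1 libraries while the sums of the remaining classes are higher.

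The genes that make, bind and break collagen were described from 6 lists with 82 genes in all, of which 54 were tested, 28 were under 1 FPKM and 4 of those were at 0 in all libraries. In total 9 were called higher and 12 lower, against 18.7% higher and 6.93% lower of all genes tested. After median-of-ratios scaling 4 were called higher and 19 lower, against 11.4% and 12.0% of all genes. The median log2 fold change of the 54 was 0.017, against 0.055 over all genes tested.

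Among 17 tested genes of chain modification and folding, 2 rose and 3 fell, and after median-of-ratios scaling 1 rose and 6 fell. Over all genes tested 18.7% were called higher and 6.93% lower, and 11.4% and 12.0% after the scaling. PLOD2, the lysyl hydroxylase of the ends of the chains, was at 105, 108 and 106 FPKM in vector and at 91.2, 92.5 and 87.0 FPKM in shYB1 libraries. It fell in every knockdown library, with a log2 fold change of -0.24 (SE 0.0336, limma adjusted p = 0.000799). The other lysyl hydroxylase genes went the opposite way. PLOD1 rose, with 59.4 to 62.3 FPKM in vector and 66.5 to 68.6 FPKM in shYB1 libraries (limma adjusted p = 0.00822). PLOD3 rose from 38.1 ± 1.67 to 42.8 ± 2.02 FPKM (SD, n = 3; limma adjusted p = 0.0246). The call of PLOD3 was lost after median-of-ratios scaling (adjusted p = 0.0868). SERPINH1, which encodes the collagen chaperone HSP47, fell from 47.5 ± 0.496 to 43.5 ± 1.62 FPKM (SD, n = 3; limma adjusted p = 0.0299). FKBP14, a prolyl isomerase, fell from 10.9 ± 0.889 to 8.93 ± 0.597 FPKM (SD, n = 3; limma adjusted p = 0.0159). The prolyl hydroxylase genes P4HA1 and P4HA2 did not pass the test (adjusted p = 0.549 and 0.116). Of 11 genes of export from the endoplasmic reticulum, 0 rose and SEC24D, a coat protein of transport vesicles, fell (log2 fold change -0.16, limma adjusted p = 0.0284). After the scaling 0 of these genes rose and 2 fell.

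Of the genes of propeptide removal and crosslinking, 7 were tested, 3 rose and 2 fell, and after median-of-ratios scaling 2 rose and 3 fell. The shares over all genes tested were 18.7% higher and 6.93% lower, and 11.4% and 12.0% after the scaling. LOX, the enzyme that oxidizes lysines for crosslinking, had the largest fall of the lists. It was at 7.18, 7.18 and 6.49 FPKM in vector and at 4.87, 4.72 and 4.94 FPKM in shYB1 libraries. The groups were far apart, with a log2 fold change of -0.51 (SE 0.0601, limma adjusted p = 0.000270). Its relative LOXL1 rose from 3.22 ± 0.157 to 3.92 ± 0.183 FPKM (SD, n = 3; limma adjusted p = 0.0166). LOXL2, the most abundant of this family here, went from 241 ± 0.848 to 256 ± 2.18 FPKM (SD, n = 3; limma adjusted p = 0.0428), a call that median-of-ratios scaling removed (adjusted p = 0.387). The enhancers of propeptide cleavage moved in opposite directions, PCOLCE falling (log2 fold change -0.27, limma adjusted p = 0.0217) and PCOLCE2 rising (0.32, adjusted p = 0.0178).

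Of 5 collagen receptor genes tested, ITGB1, the beta chain of the collagen-binding integrins, and MRC2, an uptake receptor for cleaved collagen, were called higher, with log2 fold changes of 0.10 and 0.15 (limma adjusted p = 0.0358 and 0.0343). Neither was called after median-of-ratios scaling (adjusted p = 0.261 and 0.127), which gave 0 receptor genes higher and 1 lower. Over all genes tested 18.7% were called higher and 6.93% lower, and 11.4% and 12.0% after the scaling. Of 7 matrix partners tested, NID2 and SPARC fell and HSPG2 rose, and after the scaling 0 rose and 3 fell. NID2, a basement membrane linker that binds collagen IV, fell from 29.6 ± 1.21 to 23.5 ± 0.869 FPKM (SD, n = 3; limma adjusted p = 0.000656). SPARC, a collagen-binding matrix protein, fell from 101 ± 0.932 to 92.1 ± 0.176 FPKM (SD, n = 3; limma adjusted p = 0.00731). HSPG2, which encodes the basement membrane proteoglycan perlecan, went from 23.8 ± 0.955 to 26.4 ± 0.186 FPKM (SD, n = 3; limma adjusted p = 0.0207) and was not called after the scaling (adjusted p = 0.0854). FN1, which encodes fibronectin, was at 627 ± 10.1 and 647 ± 18.2 FPKM (SD, n = 3) and did not pass the test (limma adjusted p = 0.312).

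Of the 7 genes of collagen breakdown tested, 4 fell and 1 rose, also after median-of-ratios scaling. Over all genes tested 6.93% were called lower and 18.7% higher, and 12.0% and 11.4% after the scaling. MMP2, a gelatinase that digests collagen IV, was at 73.2, 72.0 and 72.0 FPKM in vector and at 62.0, 60.2 and 61.3 FPKM in shYB1 libraries. It fell with no overlap of the groups (log2 fold change -0.24, SE 0.0309, limma adjusted p = 0.000437). MMP14, the membrane-bound collagenase that activates MMP2, fell from 97.6 ± 1.03 to 84.0 ± 1.90 FPKM (SD, n = 3; limma adjusted p = 0.000971). The lysosomal protease gene CTSB and TIMP1, an inhibitor of metalloproteinases, also fell (log2 fold changes -0.13 and -0.20, limma adjusted p = 0.0150 and 0.00696). TIMP2, which inhibits MMP2 and also takes part in its activation by MMP14, was at 72.9, 75.4 and 77.5 FPKM in vector and at 99.1, 95.8 and 98.1 FPKM in shYB1 libraries. TIMP2 rose in every knockdown library (log2 fold change 0.38, SE 0.0340, limma adjusted p = 5.71e-05).

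**Figure D5:**
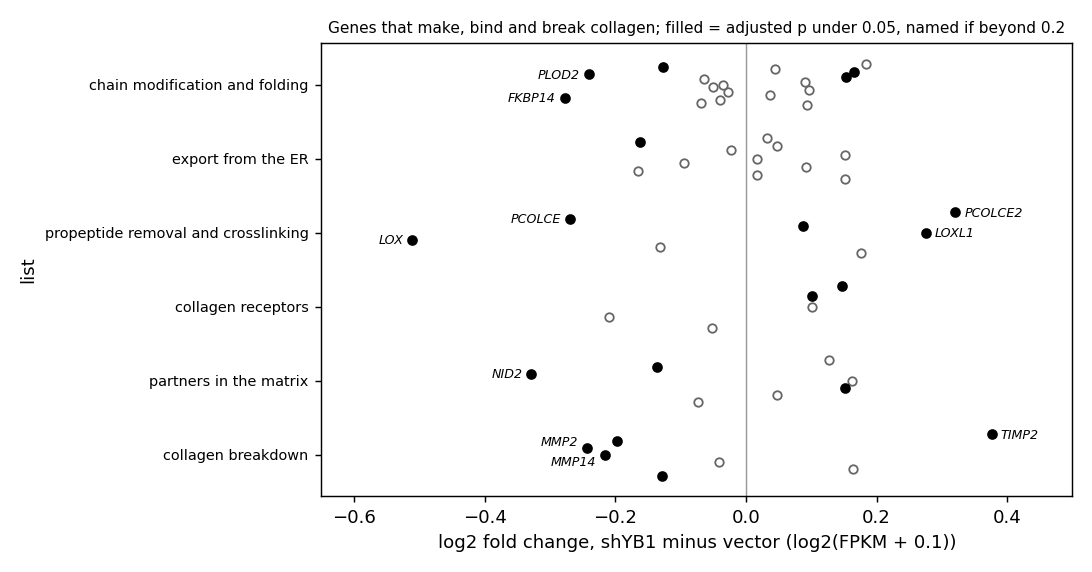
Log2 fold change (shYB1 minus vector, on the log2(FPKM + 0.1) scale) of the 54 tested genes of the 6 lists, with a point for each gene. Filled points have a limma adjusted p under 0.05, and those beyond 0.2 in size are named, from LOX at -0.51 to TIMP2 at 0.38.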

How the data were processed

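The 3 vector and 3 shYB1 libraries were made from total RNA of 786-O cells, and the study describes mRNA sequencing. The authors deposited FPKM values for 20030 genes in each library, and 6 of 6 per-library columns were used, with 0 left out. The submitters' processing notes name Trimmomatic, HISAT2, Cufflinks, HTSeq, DESeq and the genome build GRCh38. Versions, the role of each tool and the use of strand are not given in the sources used here.

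Collagen genes were selected by symbol. log2(FPKM + 0.1) was compared for the 10439 genes averaging 1 FPKM or more by limma 3.58.1 (R 4.3.3; eBayes with trend and robust prior, two-sided), and p-values were adjusted by Benjamini-Hochberg over that whole table. Fold changes on this scale understate changes of low genes. Exact permutation tests were made for single values. The tests were checked on simulated data with 200 changed genes. Of these, 53 were recovered at a fold change of 1.2, 175 at 1.5 and 195 at 2, with 1, 6 and 10 false calls. Small changes were thus often missed there. The simulation changed 200 of 10439 genes, evenly up and down, whereas 2679 were called in the data, mostly higher. These counts therefore do not give the power or error rate of the test on these data. Python 3.11.15, SciPy 1.17.1, matplotlib 3.10.9, pandas 2.3.3 and NumPy 2.4.6 served for sums, ratios, motifs and plots.

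All collagen genes averaging 1 FPKM or more are named, and those averaging 0.2 to 1 FPKM as well. From each pathway list the text names up to 4 called genes with the largest absolute change, and the called ones of P4HA1, P4HA2, PLOD2, SERPINH1, LOX, LOXL2, MMP14, MMP2, SPARC and FN1. CTSB, and P4HA1, P4HA2 and FN1 where not called, were added after their values were seen. Members, lists and tests were chosen with earlier results of these data known. Gene coordinates are from GENCODE release 29 on GRCh38, and start sites and sequences from RefSeq on GRCh38.p14. Transcripts were searched for 50-base words shared with other genes, and at most 0.748% of the words of a named collagen gene (COL8A1) were shared. Alternatives were other pseudocounts (1 and 0.01), filters (none, and a mean of 5 FPKM), scalings, a prior without trend, a replicate block, a fold limit of 1.5, and leaving out each library.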

Additional observations from a re-analysis of the deposited data

How the results depend on the processing

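Over 191 combinations of a collagen gene and an alternative, 174 kept their side of the threshold, 16 lost the call and 1 gained it (COL12A1 with a prior without trend, adjusted p = 0.0446). The direction was kept in all but 4, those of COL4A1, which was not called and lay at -0.0033, when vector replicate 2 or 3 or shYB1 replicate 2 or 3 was left out (at most 0.013). The lost calls were those of COL6A1, COL8A1 and COL14A1. Without the expression limit 1 collagen gene was called lower, against 3. Leaving out each library gave 6 collagen genes called higher each time and 1 to 2 called lower, with 1 without vector replicate 1, vector replicate 2, shYB1 replicate 1 or shYB1 replicate 2. The limit of 1.5-fold in place of 2 gave 59 genes higher (against 4) and 60 lower (against 19), and 1 collagen gene higher, COL9A2. At the limit of 2, the fit without the expression limit gave 35 higher and 50 lower. A pseudocount of 1 gave 0 and 9, and both settings gave 0 collagen genes.

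Over all genes, 1956 were called higher and 723 lower. The split was 1192 and 1253 with median-of-ratios scaling, 1267 and 1184 with quantile normalization, and 1323 to 1944 and 513 to 606 with each library left out. The summed FPKM differences moved to 5.58% (basement membrane) and 9.77% (other) with median-of-ratios scaling. With each library left out they ranged from -22.1% to -19.3% for fibrillar, 8.90% to 10.5% for basement membrane and 13.2% to 14.6% for other collagens. For the 6 lists together, median-of-ratios scaling gave 4 higher (against 9) and 19 lower (against 12). Leaving out each library gave 3 to 11 higher and 8 to 11 lower, with 3 higher without vector replicate 1 or shYB1 replicate 1, 4 without shYB1 replicate 2 and 5 without shYB1 replicate 3. Apart from what a scaling or a smaller number of libraries does by construction, the cause was not tested.

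For pairing, the mean of each gene within its group was subtracted from the log2 values. The remainders of same-numbered vector and shYB1 libraries correlated at -0.169, -0.0590 and -0.00824. Those of differently numbered libraries correlated at -0.0507 to 0.113, so the replicate numbers gave no sign of pairing. With the replicate block, 2074 genes were called higher and 760 lower, collagen calls were 6 and 3, and the lists had 11 and 12. The depth is unknown, so no detection limit could be given for the genes listed at 0.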
